A study of Mus musculus with 10 samples.

Results

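Plac1 is represented by 1 probe set among the 24888 in the deposited table, and it is 1 of the 17919 genes that the array's annotation names by a single symbol. It was chosen by its higher level in the lungs without epithelial Hdac3 in this same comparison, so its own levels and differences are given as a description and are not tested. Whole lungs were taken from 10 mouse embryos at E18.5, near the end of gestation, and each was hybridised to its own Affymetrix array. The control group held 5 lungs labelled Shhcre control, and the knockout group held 5 lungs labelled Shhcre:Hdac3fl/fl. Both groups share a mixed C57BL/6 and 129X1,129S6 background and carry Shh-Cre, which recombines floxed alleles in the epithelium of the developing lung. The mothers were Hdac3 fl/fl and the fathers Hdac3 fl/+ with Shh-Cre, so each embryo inherited a floxed allele from its mother. The labels do not state the Hdac3 alleles of the controls. A control of this cross would carry at least 1 floxed allele, which Shh-Cre would delete in its epithelium. Mesenchymal, endothelial and blood cells were not targeted and contribute to every value.

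Plac1 (placenta specific 1) lies on the X chromosome and encodes a small secreted or membrane-associated protein of the trophoblast, the cell lineage that forms the fetal face of the placenta. In mice its loss enlarges the placenta, and in adults the gene is silent in most tissues, although many human tumours express it. The protein resembles part of the zona pellucida proteins of the egg coat. Hdac3 is a histone deacetylase that works in corepressor complexes, which nuclear receptors recruit to hold target genes silent.

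The RefSeq promoter table (GRCm38.p6) holds 2 starts for Plac1, both on the minus strand. They are shown because a single probe set reports the gene as a whole, so that the levels below cannot be assigned to either start. The 250 bases before each start are given from 5′ to 3′, with matches to the motifs searched in capitals. The distal window is chrX:53240111-53240360 and the proximal window, which lies within the gene, is chrX:53114406-53114655.
Plac1 distal start: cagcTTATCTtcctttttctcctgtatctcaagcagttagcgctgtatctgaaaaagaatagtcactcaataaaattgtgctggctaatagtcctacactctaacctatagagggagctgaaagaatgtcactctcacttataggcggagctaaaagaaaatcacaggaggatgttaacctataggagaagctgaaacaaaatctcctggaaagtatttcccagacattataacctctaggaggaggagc
Plac1 proximal start: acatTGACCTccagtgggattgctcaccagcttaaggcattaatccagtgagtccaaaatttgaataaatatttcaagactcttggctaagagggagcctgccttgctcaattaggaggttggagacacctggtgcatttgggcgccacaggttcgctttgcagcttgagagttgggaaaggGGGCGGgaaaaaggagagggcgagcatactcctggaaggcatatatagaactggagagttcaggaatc

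The windows differed in composition and in the motifs they held. The distal window was 40.4% G and C with 2 CpG dinucleotides, and the proximal window was 48.8% with 4, against medians of 52.4% and 6 over 32851 promoter windows of the same length. The proximal window held 1 match to the nuclear receptor motif AGGTCA, on the opposite strand from 246 to 241 bases before the start, a motif present in 14.0% of all windows. It also held 1 GC box, GGGCGG, from 68 to 63 bases before the start, as did 32.7% of windows. The distal window held 1 GATA motif, AGATAA, on the opposite strand, which 9.99% of windows held. Neither window held the AP-2 motif GCCNNNGGC, the AP-1 motif TGACTCA, the TEAD motif GGAATG, the CRE motif TGACGTCA, the E box CACGTG, the TATA box TATAAA or CCAAT. Each motif was searched on both strands, and no 2 matches overlapped. A match is a description of these letters and not evidence of binding.

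Before the levels of Plac1, 3 features of the lungs are needed. Hdac3 had a mean log2 level of 10.81 ± 0.10 in control and 10.50 ± 0.11 in knockout lungs (SD, n = 5 per group) with no overlap, a fall to 80.4% (limma adjusted p = 0.0203). It was not called without control 2 (adjusted p = 0.0526) or control 5 (0.0545). Within each group the second principal component separated lungs 1 to 3 from lungs 4 and 5. Knockout 5 stood apart in its sex chromosome genes, as described further on, and some of the results below are also given without it. A result given only with knockout 5 may still depend on it.

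Plac1 was low in every control lung and high in every knockout lung. Its log2 level was 6.27, 6.42, 6.31, 6.23 and 6.79 in controls 1 to 5, and 9.08, 8.95, 8.46, 8.73 and 9.69 in knockouts 1 to 5. The groups did not overlap, and the gap of 1.66 between the highest control (control 5) and the lowest knockout (knockout 3) exceeded every other gap between neighbouring lungs, of which the widest was 0.61. The means were 6.41 ± 0.23 and 8.98 ± 0.46 (SD, n = 5 per group), a difference of 2.57 ± 0.19 (SE), which is 5.96-fold on the linear scale. This was the largest difference in either direction among the genes measured, as its choice implies. In bulk tissue, fewer or more cells that express a gene and less or more RNA per cell cannot be told apart.

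Against the whole array, Plac1 moved from the dim part of the range to the bright part. In the controls it ranked from the 22.3rd to the 36.3rd percentile of all probe sets of the same lung, and in the knockouts from the 68.7th to the 87.5th. The control levels lay from 0.12 to 0.68 above 6.11, the 20th percentile of all values in the table. No detection call was used here, so that a control level this close to the dim end may hold little signal from Plac1 itself, and the fold would then be a minimum. The percentile is a position in the brightness of probe sets and not an abundance relative to other genes, since probe sets differ in their response.

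**Figure D1:**
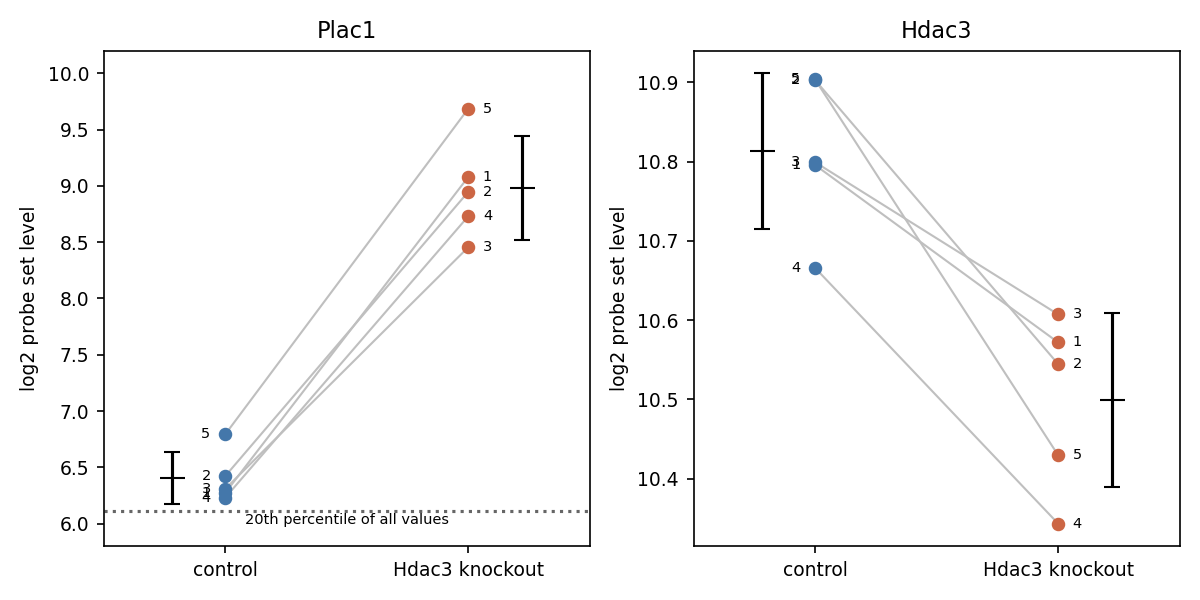
Log2 probe set levels of Plac1 (left) and Hdac3 (right) in each lung, by group; numbers are replicate numbers, grey lines join lungs of the same number, and black bars are mean ± SD of 5 lungs. The Plac1 axis starts at 5.8 and the Hdac3 axis spans less than 1 log2 unit; Plac1 lies at 6.23 to 6.79 in controls and 8.46 to 9.69 in knockouts, and Hdac3 at 10.67 to 10.90 and 10.34 to 10.61.

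Within same-numbered lungs the difference was 2.81, 2.53, 2.15, 2.50 and 2.89 for numbers 1 to 5, so that it was positive in 5 of 5 pairs and ranged from 4.43-fold to 7.43-fold. Control 5 and knockout 5 were the highest of their groups. Control 4, the lowest control, was paired with the second lowest knockout, and control 3 with the lowest. The standard error was 0.10 with the replicate number as a block, against 0.19 without it. The mean difference was 2.49 for numbers 1 to 3 and 2.70 for numbers 4 and 5. Without knockout 5 it was 2.40.

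Plac1 also varied more between lungs of 1 group than most genes did. Its SD of 0.46 among the knockouts compares with a median of 0.104 over all genes, and 122 genes (0.681%) had a larger one. Among the controls its SD of 0.23 was exceeded by 1007 genes (5.62%), with a median of 0.098 over all genes. The highest lung of each group made up much of this spread. It lay 0.37 above the next control, in a range of 0.56, and 0.61 above the next knockout, in a range of 1.23. No SD is given without these lungs, so a spread above that of most genes is not shown for the others. The order of the knockouts by Plac1 was not their order by Hdac3. Knockout 4 had the lowest Hdac3 level (10.34) and a Plac1 level of 8.73, whereas knockout 3 had the highest Hdac3 level of the knockouts (10.61) and the lowest Plac1 level (8.46). A relation between the genes within groups was not tested; their correlation over deviations from the group means is given further on.

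Because Plac1 is X-linked, the sex chromosome genes of each lung were set beside it. Xist, the RNA that coats the inactive X chromosome, was at 11.21 in control 1 and 11.47 in knockout 1 and between 4.95 and 5.13 in the other 8 lungs. The Y-linked genes Eif2s3y, Kdm5d and Uty lay at 9.16 or above in controls 2 to 5 and knockouts 2 to 4. In knockout 5 all 4 of these genes were dim, with Xist at 4.96, Eif2s3y at 5.16, Kdm5d at 5.18 and Uty at 4.53. It was the only lung with neither Xist nor Y-linked signal above 6.11. Kdm6a and Kdm5c, which escape X inactivation and were examined after these values were seen, were at 10.28 and 9.88 in knockout 5. The Xist-positive lungs averaged 10.58 for Kdm6a and 10.06 for Kdm5c, and the Y-positive lungs ranged from 10.11 to 10.24 and from 9.71 to 9.82. The labels do not give the sex of the embryos.

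The lung that lacked both signals was also the one with the highest Plac1 level. Plac1 was at 6.27 in the Xist-positive control and 9.08 in the Xist-positive knockout. Among the Y-positive lungs, 4 controls and 3 knockouts, the mean difference in Plac1 was 2.27. The part of the sex chromosomes in the level of knockout 5 was not tested.

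**Figure D2:**
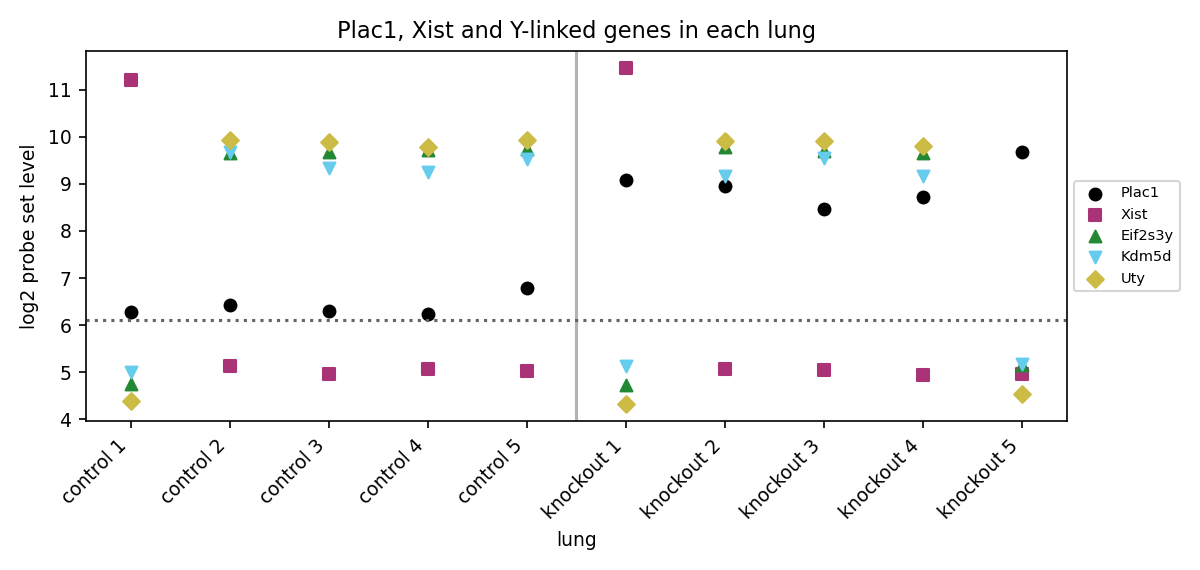
Log2 probe set level of Plac1, Xist and the Y-linked genes Eif2s3y, Kdm5d and Uty in each of the 10 lungs; the dotted line is the 20th percentile of all values (6.11). Xist is bright in control 1 and knockout 1, the Y-linked genes are bright in 7 lungs, and knockout 5, with the highest Plac1 level (9.69), has neither.

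Whether genes beside Plac1 on the X chromosome moved with it was asked next, over the 10 nearest measured genes on each side. Across all genes limma called 559 of 17919 (3.12%) between knockout and control at an adjusted p under 0.05, of which 276 were higher (1.54%) and 283 lower (1.58%). A block for the replicate number gave 846 calls (4.72%; 2.28% higher and 2.44% lower), and leaving out knockout 5 gave 699 (3.90%; 2.13% higher and 1.77% lower). Of the 20 neighbours, 0 were called higher and 1 lower, with or without the block, and their median difference was -0.02. The nearest measured gene on one side, the microRNA gene Mir542, had levels of 6.18, 6.40, 6.13, 6.24 and 6.10 in the controls and 6.42, 6.34, 6.28, 6.36 and 6.33 in the knockouts. Its groups overlapped, with a difference of 0.13 ± 0.06 (SE, limma adjusted p = 0.359).

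On the other side Fam122b had means of 7.87 ± 0.19 and 7.88 ± 0.21 (SD, n = 5 per group), a difference of 0.01 ± 0.11 (SE, limma adjusted p = 0.981) whose sign turned with array weights. Hprt, the purine salvage enzyme gene, differed by -0.04, and the glypican genes Gpc3 and Gpc4 by -0.02 and 0.02. Mir717 and Mir20b, the other microRNA genes among them, differed by -0.09 and 0.17 and were not called. The called neighbour was Hs6st2, a heparan sulfate sulfotransferase gene, which was lower by 0.25 ± 0.05 (SE, limma adjusted p = 0.0169). Both its means (6.06 and 5.81) lay under the 20th percentile, and the call was lost when values were floored there (adjusted p = 0.844) or control 1 was left out (0.0531). Of the 603 other X-linked genes, 7 were called higher and 10 lower (2.82%), near the share over all genes.

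**Figure D3:**
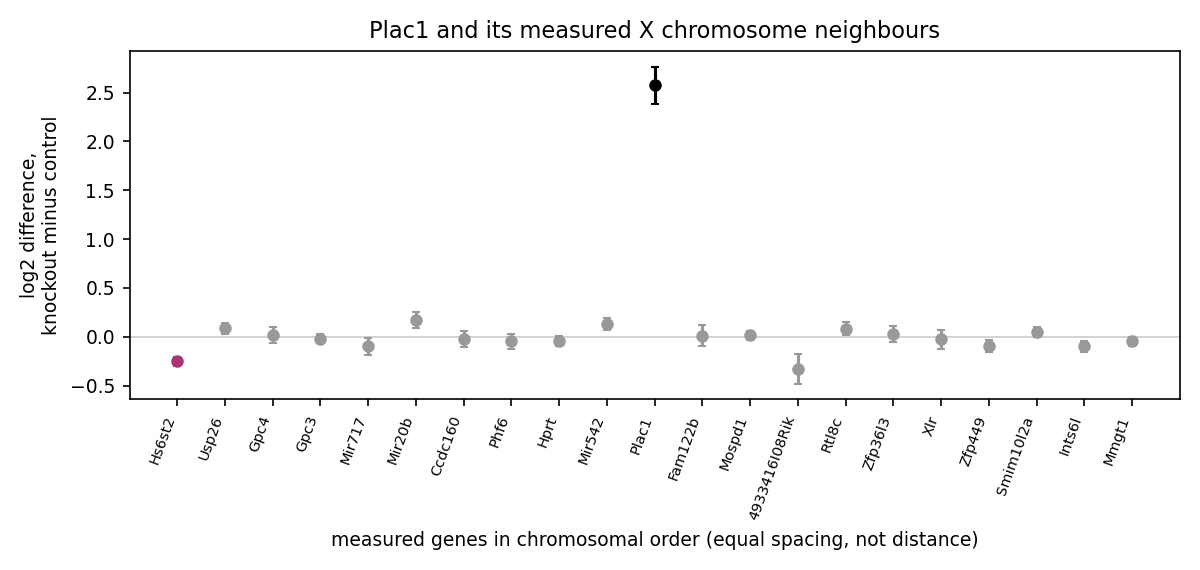
Log2 difference (knockout minus control) with its standard error for Plac1 (black) and the 10 nearest measured genes on each side, in chromosomal order at equal spacing; n = 5 lungs per group. Hs6st2, the coloured point, is the neighbour called by limma; the other neighbours lie between -0.33 and 0.17, against 2.57 for Plac1.

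Genes whose products are made mainly by trophoblast could be followed only in part. Of 42 listed placental prolactins, cathepsins, pregnancy-specific glycoproteins, syncytins and other trophoblast products, 9 had a probe set of their own in the table, and 33 were not analysed here. Of the 9, 4 had means under the 20th percentile. By limma 0 of the 9 were called, with or without the replicate block, and 0 had an unadjusted p under 0.05. Over all genes 3.12% were called (4.72% with the block), so that a list of this size could hold no call at the background share. The median difference of the 9 was 0.04, against 0.004 over all genes. Pcdh12, a protocadherin gene that endothelium also expresses, was the brightest of the 9, with means of 8.57 and 8.61. The syncytin genes Syna and Synb, whose envelope proteins fuse the syncytiotrophoblast, were the measured members of 12 defining trophoblast and placenta markers. Syna lay between 6.17 and 6.35 in the controls and between 6.11 and 6.41 in the knockouts, and Synb between 5.99 and 6.34 and between 5.92 and 6.35. Both stayed near the 20th percentile in all 10 lungs. The mean log2 level of the pair ran from 6.14 to 6.34 in controls and from 6.12 to 6.35 in knockouts. Rhox6, a placental homeobox gene, differed by 0.10 ± 0.08 and Psg16, a pregnancy-specific glycoprotein gene, by 0.12 ± 0.08 (SE, limma adjusted p = 0.681 and 0.621).

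Of the transcription factors of the trophoblast lineage 1 was called. Of 26 listed, 21 were measured, and limma called 1 higher and 0 lower, 4.76% against 3.12% over all genes, a share near the background. Their median difference was 0.01. The called gene was Junb, an AP-1 subunit needed in the placenta and an immediate early gene in many other cells. Its levels were 9.18, 9.19, 9.14, 8.95 and 8.77 in the controls and 9.69, 9.73, 9.65, 9.81 and 9.35 in the knockouts. All knockouts lay above all controls, a rise of 0.60 ± 0.10 (SE, limma adjusted p = 0.00559).

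Ovol1, a zinc finger repressor of epithelia and trophoblast, had a difference of 0.38 ± 0.10 with overlapping groups (SE, limma adjusted p = 0.0703). It was called without knockout 5 (adjusted p = 0.022) or without control 2 (adjusted p = 0.0103), so that the count of called regulators then became 2. Id2, an inhibitor of basic helix-loop-helix factors, differed by 0.18 (limma adjusted p = 0.249). Cdx2, Eomes, Esrrb and Hand1, which set up or maintain trophoblast fates, were not called. Cdx2, Eomes and Esrrb had means under the 20th percentile, and these 4 genes are named here after their values were seen. Elf5, which lung epithelium also expresses, differed by -0.16 (limma adjusted p = 0.594).

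Among placental genes that other tissues also use, a minority changed, in both directions. Of 35 listed, 31 were measured, and limma called 5 higher and 4 lower, 29.0% of those measured against 3.12% over all genes. The list was chosen with earlier results of these data known, so its share is a description and not a test of placental genes. The median difference of the list was 0.004. With the replicate block 5 were higher and 2 lower, and without control 1 only 5 were called. Krt8 and Krt18, the keratins that pair in trophoblast and in simple epithelia, rose by 0.74 ± 0.06 and 1.34 ± 0.07 (SE, limma adjusted p = 1.75e-05 and 1.6e-06). Krt18 was at 10.67, 10.75, 10.72, 10.50 and 10.73 in the controls and at 12.08, 11.93, 12.16, 12.08 and 11.82 in the knockouts. Krt19 rose by 0.67 ± 0.10 (limma adjusted p = 0.00251), and Egfr, the epidermal growth factor receptor gene, by 0.26 ± 0.05 (adjusted p = 0.0182), although Egfr was not called without control 1 (0.0564) or control 3 (0.0536). The groups did not overlap for any of these 4 genes. They were named because they were called, and genes without overlap were not counted over the whole array, so this is a description.

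Cldn4, a claudin of tight junctions, rose by 1.95 ± 0.32 (SE, limma adjusted p = 0.0052). Its levels were 8.92, 9.12, 8.84, 8.12 and 8.09 in the controls and 11.08, 11.07, 10.94, 10.38 and 9.36 in the knockouts. Numbers 4 and 5 were the lowest of each group, and knockout 5, the highest for Plac1, was the lowest knockout for Cldn4, Krt18, Krt8 and Krt19. Over the deviations of the 10 lungs from their group means, Plac1 correlated at -0.63 with Cldn4, -0.49 with Krt18 and -0.55 with Krt8. This is a description over lungs that share a group mean. It includes both lungs numbered 5, where Plac1 was highest and Cldn4 lowest in each group. No r is given without the lungs numbered 5, so neither size nor sign can be taken to hold there.

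Among the falls was Fgfr2, the receptor for Fgf7 and Fgf10, lower by 0.29 ± 0.06 (SE, limma adjusted p = 0.0178). The other falls were outside the naming rule and are given because they complete the count. Met, the hepatocyte growth factor receptor gene, was lower by 0.46 (adjusted p = 0.0195). Slc22a18 and Phlda2, imprinted neighbours of Cdkn1c, were lower by 0.33 and 0.23 (adjusted p = 0.0408 and 0.0434) but were not called with the replicate block (adjusted p = 0.0712 and 0.066). Slc22a18 was also not called without knockout 5 (adjusted p = 0.0767). Both means of Phlda2 (5.51 and 5.28) lay under the 20th percentile, and with values floored there neither it nor Met nor Slc22a18 was called. Plac8 and Plac9a, which share only their naming with Plac1, differed by -0.06 each and were not called (limma adjusted p = 0.838 and 0.651).

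No measured relative of the Plac1 protein was called. Of 18 listed oocyte-secreted proteins and proteins with a zona pellucida domain, 11 were measured, and limma called 0, with or without the block, against 3.12% over all genes, so that a list of this size could hold no call at the background share. None of the 11 had an unadjusted p under 0.05. Oosp2, the oocyte-secreted gene once called Plac1l, had means of 5.65 ± 0.06 and 5.68 ± 0.07 (SD, n = 5 per group). Like 6 others of the 11 it lay under the 20th percentile in its mean over all lungs. The members with the smallest p were Umodl1, at -0.10 ± 0.06, and the TGF-beta coreceptor gene Tgfbr3, at -0.08 ± 0.08 (SE, limma adjusted p = 0.532 and 0.727).

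Nuclear receptors, coactivators and other factors that studies of the human PLAC1 promoters name were followed next. Of 15 listed genes, 11 were measured and none of these encodes a corepressor that carries Hdac3. Against 3.12% over all genes, limma called 0 of the 11, with or without the block; 0 had an unadjusted p under 0.05. The retinoid X receptor gene Rxra differed by -0.03 ± 0.08 and the liver X receptor gene Nr1h3 by -0.02 ± 0.07 (SE), both named after their values were seen. Cebpb, a bZIP factor gene, differed by 0.11 ± 0.05 and Rb1, the retinoblastoma gene, by -0.11 ± 0.05 (SE, limma adjusted p = 0.389 and 0.409).

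FGF, furin and Notch genes, which studies of PLAC1 in trophoblast and tumour cells name as partners, were followed in the same way. Of 20 listed, 19 were measured, and limma called Fgfr2 alone (5.26%, against 3.12% over all genes), which is also among the placental genes above. No member was called without control 1, where Fgfr2 had an adjusted p of 0.0549. With the replicate block, which called 4.72% of all genes, 2 were lower, the second being Fgf1, at -0.32 ± 0.10 (SE, limma adjusted p = 0.138, and 0.0388 with the block). Akt1, a kinase of growth factor signalling, had levels from 10.54 to 10.62 in controls and from 10.68 to 10.81 in knockouts, without overlap. Its difference was 0.16 ± 0.04 (SE, limma adjusted p = 0.0702), and it was called without knockout 5 (adjusted p = 0.0499), which made the count 2. The median difference of the list was -0.05.

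Germline and tumour-testis genes, listed as tissue-restricted genes that somatic cells mostly keep silent, could be followed for 9 of 30 listed. How Plac1 is kept low was not tested. At the share called over all genes, 3.12% (4.72% with the block), a list of 9 could hold no call. By limma 0 were called, with or without the block, and 1 had an unadjusted p under 0.05. This was Xlr3a, at -0.23 ± 0.08 (SE, adjusted p = 0.219). Asz1, a germ cell gene, was at -0.30 ± 0.14 (SE, adjusted p = 0.377). The other 7 had means under the 20th percentile. The median difference was -0.006.

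**Figure D4:**
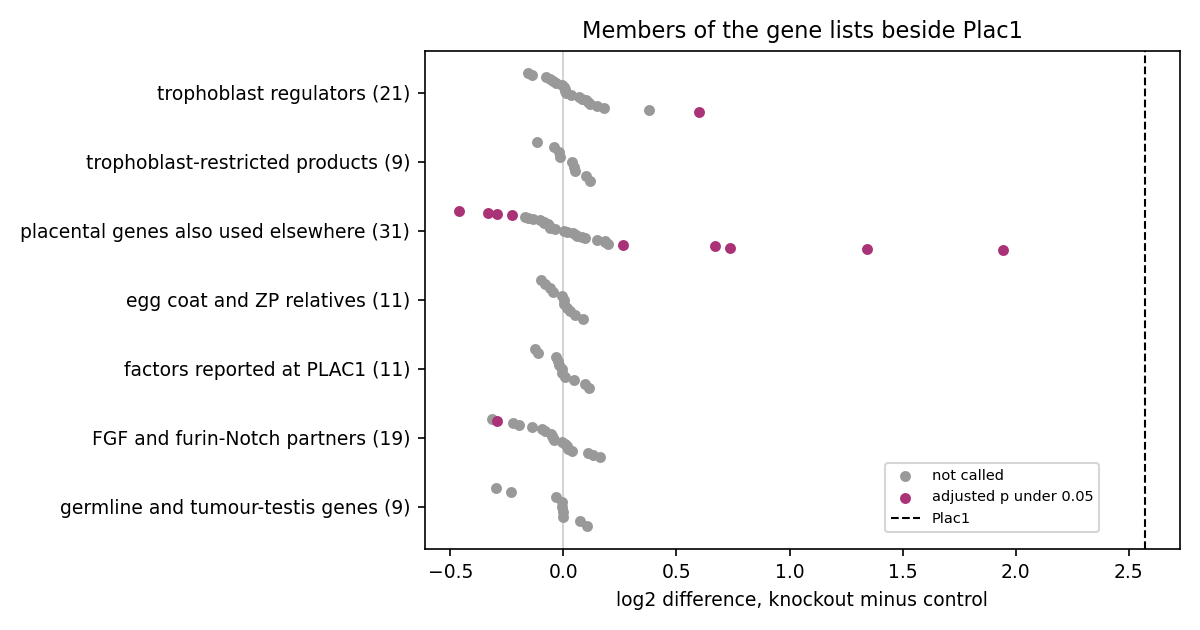
Log2 difference (knockout minus control) of every measured member of the 7 gene lists, 1 point per gene, with the number measured in brackets; coloured points have a limma adjusted p under 0.05. The dashed line marks Plac1 at 2.57, and the nearest points are Cldn4 at 1.95 and Krt18 at 1.34.

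Markers of the lung itself were present in every library. Sftpc, the surfactant protein C gene of AT2 cells, had means of 13.46 and 13.44, and the lung epithelial transcription factor gene Nkx2-1 had 11.01 and 10.97. Of 10 epithelial markers limma called 0, with or without the block, against 3.12% over all genes (4.72% with it). A list of this size could hold no call at the background share. An unadjusted p under 0.05 was found for 2 of the 10, which are named after their values were seen. Aqp5, a water channel gene of AT1 cells, differed by 0.47 ± 0.14 (SE, limma adjusted p = 0.115), and without knockout 5 it was called, at 0.62 (adjusted p = 0.0026). Cdh1, the E-cadherin gene, differed by 0.18 ± 0.05 without overlap (SE, limma adjusted p = 0.0517). The mean log2 level of the 10 markers ran from 10.999 to 11.051 in controls and from 11.063 to 11.174 in knockouts, without overlap. The differences of the 10 markers ranged from -0.15 to 0.47, the latter for Aqp5, with a median of 0.02. The mean therefore does not show a rise shared by the markers, and its part in the Plac1 difference was not tested. As mean log2 levels, the 5 mesenchymal markers ranged over 10.83 to 11.01 and 10.76 to 10.94, the 5 endothelial markers over 11.32 to 11.39 and 11.27 to 11.35, and the 5 leukocyte markers over 8.82 to 8.99 and 8.60 to 8.85 in controls and knockouts, each overlapping. The 5 markers of yolk sac and liver could likewise hold no call at the background share. Of these 5, 0 were called, also with the block, and 1 had an unadjusted p under 0.05. Their mean log2 levels ran from 6.31 to 6.49 and from 6.15 to 6.44. Of 5 erythroid markers only Slc4a1 was measured, from 8.17 to 8.67 and from 8.45 to 8.91; it was called with the replicate block (limma adjusted p = 0.0461) and not without it (0.464).

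Genes whose levels followed Plac1 most closely were sought among 13703 named genes above the 20th percentile, by Pearson's r over the 10 lungs. This measure contains the difference that chose Plac1, so it is a description. The 8 highest were Arid3b (r = 0.98), Ctsc (0.97), Tbl1xr1 (0.97), Mmp23 (0.97), Eno3 (0.97), Znrf3 (0.96), Ano1 (0.96) and Tbl1x (0.96). Arid3b encodes an ARID family DNA-binding protein, Ctsc the lysosomal cathepsin C, Mmp23 a membrane metalloproteinase, Eno3 the muscle enolase, Znrf3 a ubiquitin ligase that restrains Wnt receptors and Ano1 a calcium-activated chloride channel. Tbl1xr1 and Tbl1x encode subunits of the corepressor complexes in which Hdac3 acts.

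All 8 genes were higher in every knockout lung than in every control lung, which their choice by a high r with Plac1 all but fixed. Their differences were far smaller than that of Plac1, from 0.17 for Tbl1x to 1.11 for Eno3. Tbl1xr1 was between 10.24 and 10.27 in the 5 controls and at 10.46, 10.52, 10.47, 10.50 and 10.66 in the knockouts, with knockout 5 the highest, as for Plac1. Tbl1x was between 10.48 and 10.53 in the controls and at 10.70, 10.62, 10.62, 10.66 and 10.70 in the knockouts. Tbl1x was not called with the replicate block (adjusted p = 0.0655) or with any single lung left out, and Arid3b was not called on the mean of its probe sets (0.188). Krt18, Krt8 and Cldn4 ranked at 22, 31 and 361 by the same measure. Only 2 of the 8 remained among the 8 highest by Spearman's rank correlation, and 2 without lungs numbered 5.

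With group means subtracted, so that the contrast that chose Plac1 plays no part, other genes came first. The 8 highest of the 13703 were Efna2 (r = 0.97), Ska2 (0.95), Rsl1d1 (0.95), Hectd4 (0.94), Tmpo (0.93), Fam81a (0.93), Jpt1 (0.92) and Stxbp4 (0.92), over 10 deviations. Efna2 encodes an ephrin ligand, Ska2 a kinetochore protein, Rsl1d1 a nucleolar protein and Tmpo a protein of the nuclear lamina. None of these 8 was called between knockout and control by limma, also with the block. Ska2 was at 9.20 in control 5 and from 8.63 to 8.83 in the other controls, and at 9.33 in knockout 5 and from 8.63 to 8.94 in the other knockouts. Each of the 8 was highest in control 5 among the controls and in knockout 5 among the knockouts, as Plac1 was, and 0 remained among the 8 highest without lungs numbered 5. By this measure Tbl1xr1 had an r of 0.79, at rank 225 of the 13703, and Hdac3 an r of 0.02, at rank 6992. Tbl1xr1 was also highest in knockout 5 among the knockouts, and its r without lungs numbered 5 is not given here.

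**Figure D5:**
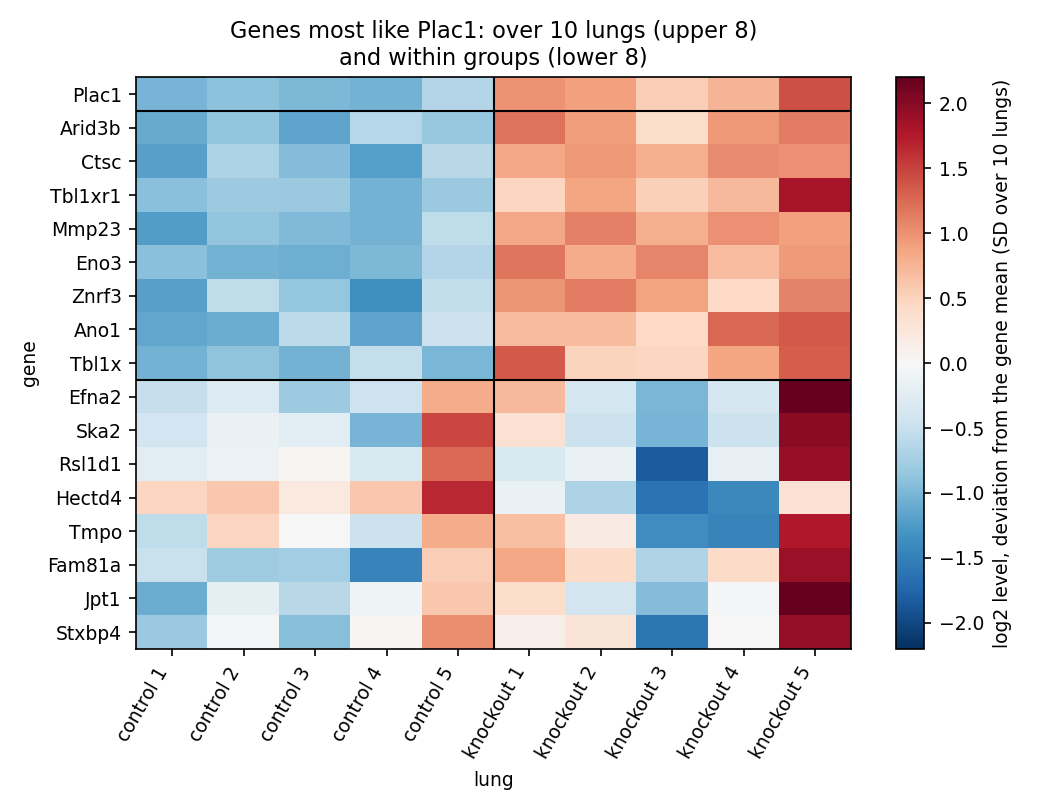
Level of Plac1 (top row), the 8 genes most like it over the 10 lungs (middle rows) and the 8 most like it after group means were subtracted (bottom rows), as deviations from each gene's mean in units of its SD over the 10 lungs. The middle rows change between control and knockout, whereas the bottom rows are highest in control 5 and knockout 5 within their groups.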

How the data were processed

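RNA from 10 whole lungs was labelled from 100 ng of total RNA with a poly(T) primer, per the labels' protocols, and hybridised to 1 Affymetrix array per lung. The authors deposited 1 log2 value per probe set and lung. The tools named in the submitters' processing notes are oligo, RMA and limma; their versions, a genome build and a rule for keeping rows were not found in the labels or headers. Values ran from 3.53 to 13.61, sample medians from 7.43 to 7.46, and 0 pairs of samples were identical. Precision is limited by the 5 lungs in each group, with a median SE of 0.066 for a log2 difference.

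Probe sets were named through the platform table: 18922 had 1 symbol, 1343 several and 4623 none. Each gene was represented by its probe set of highest mean. Groups were compared by limma 3.58.1 in R 4.3.3 (lmFit, eBayes, two-sided, Benjamini-Hochberg over 17919 genes, threshold 0.05), and the script was tested on simulated data. Adjusted p values are limma's. The 20th percentile of all values (6.11) served as a floor. Plac1 and the lists were chosen with earlier results of these data known. From each list the called members were named, at most the 6 of smallest p, or the 2 of smallest p where fewer than 2 were called. By the same rule the nearest, called and microRNA neighbours were named, and the 8 genes of highest r by each measure, leaving aside immune receptor segments, small noncoding RNAs and predicted genes. Other genes were named after their values were seen.

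Gene order and promoters came from the RefSeq tables of GRCm38.p6, in which 17891 of the symbols were found. The replicate numbers are not explained by the labels. Deviations of same-numbered lungs from their group means correlated at 0.154 to 0.485. For lungs of different numbers the median was -0.083 and the highest 0.330, so the ranges overlapped. The numbers were taken to pair the lungs, a reading of the data that no label states. Of the 10 lungs, 7 matched best with their own number. The labels call the lungs biological replicates. Alternatives were the replicate block, each lung left out, a floor, a filter, other probe set summaries, quantile normalization, trended robust variances and array weights.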

Additional observations from a re-analysis of the deposited data

Results flagged for a closer look

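Values of 66 genes were examined in both groups for a lung whose gap to the nearest other lung exceeded 0.71 of the group's range, and 17 of 132 groups of 5 were singled out. Chance alone gives about 1 in 20. Control 1 was far above the other controls for Xist (11.21, nearest 5.13), Kdm6a (10.56, nearest 10.23) and Kdm5c (10.03, nearest 9.74), and far below them for Eif2s3y (4.75, nearest 9.65), Kdm5d (5.01, nearest 9.25) and Uty (4.39, nearest 9.78). Knockout 1 was far above the other knockouts for Xist (11.47, nearest 5.06) and Kdm6a (10.60, nearest 10.28). These 8 flags follow the sex chromosome genes.

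Of the other 9, control 5 was high for Rsl1d1 (9.88, nearest 9.78) and Hectd4 (9.53, nearest 9.47), both of which were picked for following Plac1 within groups. Knockout 5 was high for Nkx2-1 (11.13, nearest 10.93) and Apoa4 (6.89, nearest 6.64). Control 1 was high for Hs6st2 (6.13, nearest 6.06) and Afp (6.51, nearest 6.42), control 2 for Ovol1 (7.09, nearest 6.71), and control 4 for Xlr3a (7.95, nearest 7.60) and Tbl1x (10.53, nearest 10.49). Plac1 itself was not singled out in either group.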

How the results depend on the processing

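The Plac1 difference of 2.57 moved by less than the SD pooled over both groups (0.363) under the alternatives run, from 2.40 to 2.71 with single lungs left out. It moved furthest in the Y-positive lungs, to 2.27, by more than the SD of the controls. Over all genes 846 were called with the replicate block and 393 to 699 with 1 lung left out. Only numbers 4 and 5 gave 2 calls with 4 lungs; this setting and the other subsets of numbers were chosen after seeing the data. Called trophoblast regulators numbered 2 with array weights and 1 to 2 with a lung left out. FGF and furin-Notch genes numbered 2 with array weights, genes above the median level, the replicate block, trended robust variances or floored values, and 0 to 2 with a lung left out. Placental genes used elsewhere numbered 5 to 8 with a lung left out. Called X neighbours numbered 0 among genes above the median level and with floored values, and 0 to 1 with a lung left out. Of the 8 genes most like Plac1, 2 were shared by Spearman's rank for either measure; without number 5, 2 were shared over the lungs and 0 within groups. Fam122b turned to -0.0027 with array weights and ran from -0.0717 to 0.0906 with a lung left out. The cause was not tested. Among the other 32 genes followed through these settings no sign turned. Some named genes that were not followed did turn without knockout 5. Rxra went from -0.03 to 0.02, Gpc4 from 0.02 to -0.005 and Ska2 from 0.03 to -0.08. Efna2 went from 0.08 to -0.003 and Stxbp4 from 0.02 to -0.01. Arid3b was not called on the mean of its probe sets (adjusted p = 0.188), and Tbl1x not with the replicate block, with quantile normalization or without any 1 of the 10 lungs. The block changed no other call of a named gene than those given. Background correction was taken as deposited, and 5 lungs a group limit the precision.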
